A study of Mus musculus with 49 samples.

Results

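The genes described here are the matrix metalloproteinases (MMPs), the ADAM and ADAMTS proteases with their ADAMTS-like relatives, the tissue inhibitors of metalloproteinases (TIMPs) and the serpins. They were chosen by symbol: every probe whose current mouse symbol began with Mmp, Adam or Timp and a number, with Adamts or with Serpin was taken, and the brightest probe stood for its gene. This gave 84 of the 13852 named genes, from 89 probes: 14 MMPs, 22 ADAMs, 15 ADAMTS proteases, 5 ADAMTS-like genes, 3 TIMPs and 25 serpins. No measured value entered this rule, beyond the brightness that picked 1 probe for each of the 5 members with several. The families themselves were chosen with earlier results of these data known.

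MMPs are zinc proteases, secreted or anchored at the cell surface, that cut collagens, gelatins and other matrix proteins after removal of a propeptide, and TIMPs block their active site. ADAMs are membrane proteins, some of which release the outer part of receptors and growth factors, while others have no protease activity and act in adhesion. ADAMTS proteases are secreted and cut proteoglycans or trim procollagens, and serpins trap serine or cysteine proteases, except for members such as the collagen chaperone Serpinh1. Fibroblasts are a main source of these proteins in skin, and matrix remodelling accompanies the change from fibroblast to epithelial cell shape.

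Gene expression was measured with 49 one-colour Cy5 arrays of cultured mouse cells in 23 groups of 2 or 3 arrays, normalized by the authors in what the values show to be 5 separate sets. Levels are given as the deposited linear intensity, and comparisons were made within a set, as differences of mean log2(intensity + 32). A member passed at an adjusted p under 0.05 in limma, adjusted over all genes of the comparison. The labels do not say that replicates are separate cultures, so p-values measure the spread between arrays, and the number of arrays limits their precision. Levels of different probes are not compared.

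The pluripotent lines were 3 induced pluripotent stem cell (iPSC) lines named G6Gm, G3 and Dlx3RNAi and the embryonic stem cell (ESC) lines R1, of strain 129, and B6, of strain C57BL/6. The lines were kept in medium with the inhibitors PD0325901 and CHIR99021, or LIF in their place, on a feeder layer of mitomycin C-treated MEF. The infected cells were mouse embryonic fibroblasts (MEF) into which lentiviruses, switched on by doxycycline, had brought the factors. SKM is SOX2, KLF4 and MYC together, and was joined by OCT4, GATA6, SOX7, PAX1, GATA4, CEBPa, HNF4a, GRB2 or MIXL1, with an empty vector (SKM+EV) as their control. OKM stands for OCT4, KLF4 and MYC, and was joined by SOX1, SOX3, GMNN or SOX2, or by the empty vector (OKM+EV). The fibroblast controls were MEF1 EV and MEF2 EV, which carried the empty vector alone and served the OCT4 substitutes and the SOX2 substitutes, and uninfected MEF. All fibroblasts came from skin of female OGXICR embryos at D13.5 and were cultured without the epidermis. The arrays of the iPSC lines are given the same age, D13.5, and those of R1 and B6 none. GATA4+SKM, OKM+EV and B6 had 3 arrays and every other group 2. The arrays do not follow the introduced factors, so infection rests on the labels. RNA came from whole cultures, where fewer cells of a type and less RNA per cell cannot be told apart.

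Of the 84 members, 79 could be tested in at least 1 of 18 comparisons, because a gene needed a value on every array compared. They numbered 66 in the set of uninfected MEF, the iPSC lines and R1, 51 in the SKM set, 74 with OKM+EV and MEF2 EV, and 64 in the set of the SOX2 substitutes. The reason why a probe lacks values in a set was not stated. In the 2 OKM sets, arrays of a group lay farther apart. The median within-group SD of all genes was 0.386 and 0.222 on the log2 scale there, against 0.16 in the SKM set and 0.142 in the set of pluripotent lines. The fit over all arrays shares 1 spread per gene over the sets, so its counts and adjusted p in those 2 sets do not hold their nominal rate. In those 2 sets a member is therefore said to have changed only where it passed both over all arrays and in a fit of its set alone. By this rule 63 members changed in at least 1 comparison, and 39 of them were higher in some comparisons and lower in others. The 16 that changed in none were Adam1b, Adam7, Adam17, Adam25, Adam29, Adamts16, Adamts19, Adamtsl2, Mmp17, Mmp20, Mmp21, Serpina7, Serpina11, Serpina3b, Serpinb1c and Serpinb7. Of these, Adam17, Adamts16 and Mmp20 passed over all arrays with OKM+EV against MEF2 EV and not in the set alone. Adamts16, Adamts19, Mmp17, Mmp20, Mmp21, Serpina7, Serpina11 and Serpinb7 were tested only in the OKM sets, in 1 to 4 comparisons each. They are therefore not shown to be stable in the other sets. Adam30, Adam33, Adamts15, Mmp25 and Serpina3a could not be tested in any comparison, and Mmp10, Mmp12, Timp4 and Serpinb5 were not analysed here. Whether probes of close mouse paralogs (Serpinb6a to Serpinb6d, Serpinb9 and Serpinb9b, the Serpina3 genes, Adam1a and Adam1b) pick up each other's transcripts could not be checked, so their identities are uncertain.

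The upstream sequences of 4 members are shown because results below turn on them: Mmp3 and Mmp13, which lie in the same gene cluster on chromosome 9, Timp1, and Serpinb6b, which rose most in any comparison. Each is the 250 bases before the gene's start in RefSeq (GRCm38.p6), on the plus strand. Capitals mark 3 motifs: the AP-1 word TGANTCA on either strand, the GATA word (GATA with A or T before it and A or G after it) on either strand, and TATAAA on the gene's strand.
Mmp3 chr9:7445572-7445821: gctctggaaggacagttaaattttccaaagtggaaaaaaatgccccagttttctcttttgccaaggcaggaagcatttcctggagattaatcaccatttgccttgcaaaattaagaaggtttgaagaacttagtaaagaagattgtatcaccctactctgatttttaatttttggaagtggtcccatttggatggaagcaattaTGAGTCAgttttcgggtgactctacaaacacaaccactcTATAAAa
Mmp13 chr9:7272264-7272513: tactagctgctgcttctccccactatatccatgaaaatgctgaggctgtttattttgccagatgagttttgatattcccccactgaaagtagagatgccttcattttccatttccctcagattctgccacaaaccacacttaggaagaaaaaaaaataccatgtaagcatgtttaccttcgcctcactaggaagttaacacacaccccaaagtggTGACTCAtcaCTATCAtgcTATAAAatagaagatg
Timp1 chrX:20869916-20870165: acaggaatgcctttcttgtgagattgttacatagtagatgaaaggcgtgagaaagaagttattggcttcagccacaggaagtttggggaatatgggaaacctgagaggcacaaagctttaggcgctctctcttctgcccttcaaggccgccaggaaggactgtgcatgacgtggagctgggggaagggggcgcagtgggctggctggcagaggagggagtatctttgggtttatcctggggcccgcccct
Serpinb6b chr13:32965011-32965260: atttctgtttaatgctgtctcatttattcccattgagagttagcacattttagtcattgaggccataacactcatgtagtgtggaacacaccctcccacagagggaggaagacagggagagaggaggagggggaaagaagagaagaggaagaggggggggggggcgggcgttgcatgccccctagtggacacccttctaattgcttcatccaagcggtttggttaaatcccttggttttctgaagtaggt
Mmp3 holds TGAGTCA at -46 and TATAAA at -7 from the annotated start. Mmp13 holds TGACTCA at -35, the reverse complement of a GATA word, CTATCA, at -25 and TATAAA at -16. No motif overlapped another, and Timp1 and Serpinb6b held none of these words in this window. Among 32851 RefSeq mouse promoters cut to the same length, 6.75% held the AP-1 word, 26.5% a GATA word and 7.59% TATAAA. The 57 members with a promoter in the table had 66 promoters, of which 11 held the AP-1 word, 16 a GATA word and 14 TATAAA. A match is a description and not a binding site.

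In the iPSC set, pluripotent lines were compared with the fibroblasts. The 4 lines, G6Gm, G3, Dlx3RNAi and R1, each weighted equally, were lower than uninfected MEF in 25 of the 66 measured members and higher in 12, while 57.8% of all 11989 genes passed in either direction. The members' share was near this background, and their median log2 difference was -0.06 against 0.04 for all genes. All 3 TIMPs were lower (3 of 3), as were 5 of 10 MMPs, with 3 higher. Of the other families, ADAMs had 2 higher and 4 lower of 20, ADAMTS proteases 4 and 4 of 11, ADAMTS-like genes 0 and 2 of 5, and serpins 3 and 7 of 17.

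The gelatinases Mmp2 and Mmp9 moved in opposite directions. Mmp2 (gelatinase A) had an intensity of 7231 and 7205 in G6Gm, 1306 and 1193 in G3, 7135 and 7429 in Dlx3RNAi and 3306 and 3429 in R1, against 10688 and 11545 in MEF (log2 difference -1.52, SE 0.10, adjusted p = 1.3e-13). Every line lay below the fibroblasts, and G3 was the lowest. Mmp9 (gelatinase B) had 568 and 528 in G6Gm, 205 and 219 in G3, 579 and 594 in Dlx3RNAi and 424 and 321 in R1, against 59.1 and 62.8 in MEF (log2 difference 2.22, SE 0.15, adjusted p = 9.73e-14), so that all 8 arrays of lines were above both fibroblast arrays. Of all genes, 55.5% likewise did not overlap between the 8 arrays of lines and MEF. Mmp14, the membrane-type MMP that activates pro-Mmp2, had 12993 and 12438 in G6Gm, 1633 and 1498 in G3, 10169 and 10438 in Dlx3RNAi and 3099 and 3193 in R1, against 6482 and 5883 in MEF. G6Gm and Dlx3RNAi were thus above the fibroblasts and G3 and R1 below them. Its mean over the lines passed (log2 difference -0.29, SE 0.12, adjusted p = 0.04), but the call was lost without MEF replicate 1 or 2 or G6Gm replicate 2 or G3 replicate 2 or R1 replicate 1 or Dlx3RNAi replicate 1 (adjusted p 0.0536 to 0.281) and with a larger pseudocount (adjusted p = 0.0504). Mmp19 (-0.92) and Mmp23 (-0.96) were lower, and the membrane-type Mmp15 was higher (0.86, as log2 differences). Mmp11 (stromelysin-3) was lower as well (-0.47), a call lost without MEF replicate 1 or 2 or R1 replicate 1 (adjusted p 0.0531 to 0.188).

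The collagenase Mmp13 had 288 and 274 in G6Gm, 4264 and 4154 in G3, 5424 and 5079 in Dlx3RNAi and 4128 and 4102 in R1, against 2191 and 1884 in MEF. G6Gm was below the fibroblasts and the other 3 lines above them, and the mean over the lines did not pass (log2 difference 0.17, SE 0.16, adjusted p = 0.388). Mmp3 (stromelysin-1), whose gene lies in the same cluster as Mmp13, had 57.7 and 62.9 in G6Gm, 107 and 80 in G3, 96 and 70 in Dlx3RNAi and 149 and 171 in R1, against 94.2 and 93.4 in MEF and did not pass (log2 difference 0.00, SE 0.37, adjusted p = 0.995).

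Of the inhibitors, Timp2 had 23487 and 24289 in G6Gm, 5472 and 5537 in G3, 22629 and 23487 in Dlx3RNAi and 8979 and 8002 in R1, against 24518 and 25695 in MEF (log2 difference -0.98, SE 0.13, adjusted p = 1.14e-07). G6Gm and Dlx3RNAi stood just below the fibroblasts, and G3 and R1 far below them. Timp3, the TIMP that binds to the matrix, had 9958 and 13843 in G6Gm, 6535 and 6335 in G3, 14884 and 15806 in Dlx3RNAi and 12225 and 11748 in R1, against 19363 and 18716 in MEF (log2 difference -0.81, SE 0.17, adjusted p = 0.000452), with every line below the fibroblasts. The lines and MEF did not overlap for 55.5% of all genes. Timp1 had 26769.7 and 26283 in G6Gm, 15291 and 14544 in G3, 24836 and 25695 in Dlx3RNAi and 17407 and 16495 in R1, against 24836 and 26283 in MEF. Its groups overlapped, and its call (log2 difference -0.33, SE 0.13, adjusted p = 0.032) was lost without MEF replicate 1 or 2 (adjusted p 0.0908 to 0.2).

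**Figure D1:**
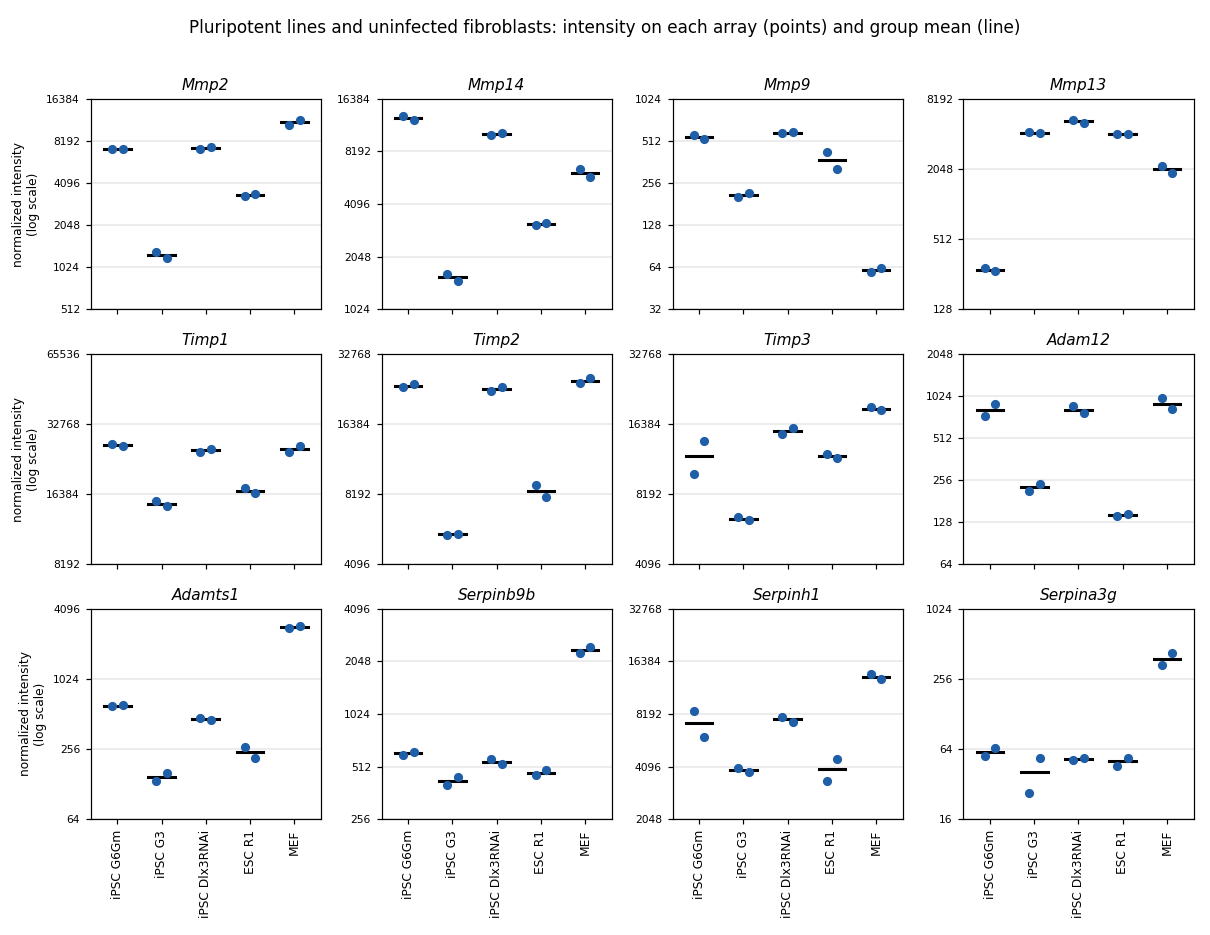
Normalized intensity (log axis) of 12 members in the iPSC lines G6Gm, G3 and Dlx3RNAi, ESC line R1 and uninfected MEF, with points for arrays and a line for the mean of 2 arrays. Mmp9 lies above the fibroblasts in all 4 lines and Adamts1 below them, while Mmp14, Timp2 and Adam12 are high in G6Gm and Dlx3RNAi and low in G3 and R1.

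Adamts1, which cuts the proteoglycan versican, fell most. It had 593 and 607 in G6Gm, 137 and 160.3 in G3, 476 and 458 in Dlx3RNAi and 268 and 214 in R1, against 2810.0 and 2938 in MEF (log2 difference -3.04, SE 0.36, adjusted p = 2.51e-08). Adamts9, another proteoglycan-cutting member, was lower too (-1.08), and so was the ADAMTS-like Adamtsl4, which binds fibrillin microfibrils, with 153 and 109 in G6Gm, 141 and 148 in G3, 142 and 176 in Dlx3RNAi and 227 and 191 in R1, against 391 and 397 in MEF (-1.17). Adamts2, which removes the amino-terminal propeptide of procollagens, was higher (0.96), a call lost without MEF replicate 1 or 2 (adjusted p 0.0824 to 0.132). Among ADAMs, Adam10, a sheddase that cleaves Notch, had 982 and 1036 in G6Gm, 773 and 781 in G3, 791 and 717 in Dlx3RNAi and 763 and 663 in R1, against 1987 and 1898 in MEF (log2 difference -1.24, SE 0.19, adjusted p = 1.46e-06), and Adam9 was lower (-0.81). Adam17, the sheddase of TNF, had 757 and 775 in G6Gm, 803 and 922 in G3, 448 and 462 in Dlx3RNAi and 652 and 701 in R1, against 504 and 805 in MEF and did not pass (log2 difference 0.07, SE 0.21, adjusted p = 0.788). Adam12 had 734 and 902 in G6Gm, 216 and 241 in G3, 862 and 769.5 in Dlx3RNAi and 141 and 146 in R1, against 985 and 821 in MEF (log2 difference -1.13, SE 0.21, adjusted p = 3.73e-05), and Adam23, which has no protease activity, fell by a like amount (-1.23). For both, G3 and R1 were the lowest lines, and for Adam12 the arrays of G6Gm and Dlx3RNAi overlapped the fibroblasts.

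The serpins that fell included matrix-related and mouse-specific members. Serpinb9b, of the granzyme-inhibitor group, had 600.3 and 617 in G6Gm, 402 and 449 in G3, 562 and 528 in Dlx3RNAi and 456 and 490.0 in R1, against 2274 and 2479.9 in MEF (log2 difference -2.16, SE 0.20, adjusted p = 2.35e-10). Serpina3g, of the mouse antichymotrypsin cluster, had 55.7 and 66 in G6Gm, 26.9 and 53.8 in G3, 51.2 and 53.5 in Dlx3RNAi and 46.2 and 54 in R1, against 339 and 425 in MEF (log2 difference -2.33, SE 0.21, adjusted p = 6.6e-11). Serpinb6b had 120.2 and 143 in G6Gm, 76.9 and 97.8 in G3, 76.7 and 76.6 in Dlx3RNAi and 109.5 and 120.3 in R1, against 420.3 and 446 in MEF (log2 difference -1.81, SE 0.19, adjusted p = 2.96e-09), while its neighbour Serpinb6c was higher (1.11). For Serpinb9b, Serpina3g and Serpinb6b the lines lay far below the fibroblasts. Serpinh1, the collagen chaperone, had 8518 and 6077 in G6Gm, 4048 and 3824 in G3, 7878 and 7417 in Dlx3RNAi and 3410.0 and 4531 in R1, against 13913 and 12912 in MEF (log2 difference -1.31, SE 0.23, adjusted p = 1.36e-05). Serpine2 (protease nexin-1), which inhibits thrombin and plasminogen activators, had 7486 and 8337 in G6Gm, 2555 and 2124 in G3, 9563 and 10744 in Dlx3RNAi and 5395 and 5288 in R1, against 11516 and 13461 in MEF (log2 difference -1.14, SE 0.23, adjusted p = 9.6e-05).

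The summed level of the 7 measured of 10 fibroblast markers was lower than in MEF in every line: it was 17734 to 18593 in G6Gm, 5498 to 5774 in G3, 19884 to 20310.3 in Dlx3RNAi and 9707 to 10543 in R1, against 23779 to 25848 in MEF. Its part in the results was not tested. The 4 measured of 8 pluripotency markers summed to 11354 to 11747 in G6Gm, 13909 to 16189 in G3, 9064 to 9872 in Dlx3RNAi and 15930.5 to 16258 in R1, against 1599.8 to 2088 in MEF. Of 23 measured genes on a list of 26 further pericellular proteases and inhibitors, 10 were higher in the lines and 8 lower, beside 57.8% of all genes that passed. That list was also chosen with earlier results of these data known. The serine protease St14 (matriptase, 3.01) and its inhibitor Spint2 (3.29) were higher, as was the urokinase gene Plau (1.00). The tissue plasminogen activator Plat (-1.74) and Reck (-1.41), a membrane-anchored MMP inhibitor, were lower.

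Each iPSC line was next compared with R1, on the same 2 R1 arrays. In G6Gm, 16 of 66 members were higher and 3 lower (17.6% of all genes passed), and in Dlx3RNAi 18 were higher and 1 lower (19.4% of all genes). In G3, 1 was higher and 7 were lower (8.42% of all genes). The members' median log2 difference was 0.10 in G6Gm, -0.22 in G3 and 0.18 in Dlx3RNAi, beside -0.01, 0.00 and 0.02 for all genes.

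The same proteases stood high in G6Gm and Dlx3RNAi. From the levels given above, Mmp14 was above R1 in G6Gm (log2 difference 2.00, SE 0.15, adjusted p = 6.64e-11) and in Dlx3RNAi (log2 difference 1.70, SE 0.15, adjusted p = 1.84e-09) and below it in G3 (log2 difference -0.99, SE 0.15, adjusted p = 3.78e-05). Mmp2 showed the same directions, with log2 differences of 1.09 in G6Gm, 1.11 in Dlx3RNAi and -1.41 in G3. Timp2 differed from R1 by 1.49 in G6Gm, 1.44 in Dlx3RNAi and -0.62 in G3, of which the call in G3 was lost without G3 replicate 1 or 2 or R1 replicate 1 (adjusted p 0.0765 to 0.154). Timp3 was lower in G3 (-0.89), a call lost without any 1 of the 4 arrays (adjusted p 0.0631 to 0.0895). Adam12 was higher by 2.27 in G6Gm and by 2.27 in Dlx3RNAi. The non-catalytic Adam23 had 706 and 943 in G6Gm and 499.6 and 529 in Dlx3RNAi, against 248 and 215 in R1 (1.69 for G6Gm; 1.05, lost without any 1 of the 4 arrays, adjusted p 0.0613 to 0.119 for Dlx3RNAi). Adam19, a sheddase of neuregulins, had 2779.9 and 3256 in G6Gm and 3760.2 and 3155 in Dlx3RNAi, against 1615 and 1344 in R1 (1.01, lost without any 1 of the 4 arrays, adjusted p 0.074 to 0.191 for G6Gm; 1.21, lost without R1 replicate 2 or Dlx3RNAi replicate 1, adjusted p 0.0843 to 0.0864 for Dlx3RNAi). Mmp19 had 755 and 832 in G6Gm and 824 and 843 in Dlx3RNAi, against 331 and 304 in R1, with log2 differences of 1.24 and 1.31 in that order. Adamts14, which like Adamts2 trims procollagens, had 435 and 396 in G6Gm and 451 and 549 in Dlx3RNAi, against 166 and 178 in R1, with log2 differences of 1.13 and 1.38. For these 4 members both iPSC lines lay above R1 without overlap. Of all genes, 68.1% did not overlap between G6Gm and R1 and 66.6% between Dlx3RNAi and R1. Serine-protease inhibitors followed in part: Serping1, the C1 inhibitor, had 479 and 591 in G6Gm and 674 and 616 in Dlx3RNAi, against 279 and 261 in R1, with log2 differences of 0.90 and 1.16, and Serpinf1 (PEDF), which blocks vessel growth, in G6Gm (0.78) and Dlx3RNAi (0.93). Serpine2 was lower in G3 (-1.19), a call lost without G3 replicate 2 or R1 replicate 1 or 2 (adjusted p 0.0545 to 0.102). The fibroblast marker sums given above were likewise highest in Dlx3RNAi and G6Gm and lowest in G3, and their part in these differences was not tested. RNA of feeder MEF, if any was left in these cultures, cannot be told apart from RNA of the lines.

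Mmp13 was the exception in G6Gm. At 288 and 274 against 4128 and 4102 in R1 it had the largest difference of any member in the 3 comparisons (log2 difference -3.73, SE 0.20, adjusted p = 2.09e-07), downward in the line where Mmp14 and Mmp2 were up. It did not pass in G3, with 4264 and 4154, or in Dlx3RNAi, with 5424 and 5079. The further proteases and inhibitors had 8 higher and 3 lower of 23 in G6Gm, 8 and 4 in Dlx3RNAi, and 1 and 4 in G3. Of all genes, 17.6%, 19.4% and 8.42% passed in that order. St14 was lower than in R1 in both G6Gm (-1.75) and Dlx3RNAi (-1.64), and the procollagen proteinase Bmp1 was higher in both (1.33 and 1.38).

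SKM with the empty vector was compared with MEF1 EV, the fibroblast control that the labels name for the OCT4 substitutes. In SKM+EV, 7 of 51 members were higher and 7 lower, beside 19.6% of all 10011 genes that passed. Timp1 had 35723 and 44401 in SKM+EV, against 13505 and 16142 in MEF1 EV (log2 difference 1.43, SE 0.17, adjusted p = 8.31e-08), with no overlap. Mmp3 had 2051 and 1708 in SKM+EV, against 709.5 and 654 in MEF1 EV (log2 difference 1.42, SE 0.46, adjusted p = 0.029), a call lost without any 1 of the 4 arrays (adjusted p 0.0798 to 0.148). In the limma fit of the SKM set alone, Mmp3 was higher as well (adjusted p = 1.65e-07). Adamts17, an ADAMTS protease of fibrillin-rich matrix, had 237 and 221 in SKM+EV, against 1816 and 2087 in MEF1 EV (log2 difference -2.92, SE 0.23, adjusted p = 1.5e-11) and fell most. Of the clade B serpins, which act mostly inside cells, Serpinb9b had 958 and 914 in SKM+EV, against 187 and 216 in MEF1 EV (log2 difference 2.06, SE 0.26, adjusted p = 3.51e-07) and Serpinb6c had 981 and 956 in SKM+EV, against 273 and 127.5 in MEF1 EV (log2 difference 2.18, SE 0.27, adjusted p = 2.01e-07). Adam23 had 679.7 and 1587 in SKM+EV, against 1602 and 4037 in MEF1 EV and was lower (-1.26, lost without MEF1 EV replicate 2 or SKM+EV replicate 1, adjusted p 0.231 to 0.249). Serpinb8 was higher (1.35) and Serpinb1a lower (-0.85). The arrays of the 2 groups did not overlap for any of these members, as for 61.6% of all genes. Not overlapping was also a condition for giving the array values of most members. Of 17 further proteases and inhibitors measured in this set, 0 were higher and 1, Reck, was lower in SKM+EV (log2 difference -1.02, adjusted p = 0.0281). The 7 keratinocyte markers summed to 85080.2 to 85956 in SKM+EV, against 2178 to 2572 in MEF1 EV, and the 8 measured of 10 fibroblast markers to 64347 to 70384 in SKM+EV, against 78621 to 89266 in MEF1 EV. Their part in the results was not tested.

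The next 9 comparisons set each added factor against SKM+EV. They share the 2 SKM+EV arrays, so a member that is extreme on those arrays can pass in several of them at once. The count of members that passed was largest with GATA4+SKM, at 6 higher and 29 lower of 51, where 53.9% of all genes passed. GATA6+SKM had 8 higher and 15 lower (22% of all genes), HNF4a+SKM 11 and 11 (42.4%), GRB2+SKM 8 and 13 (40.3%) and CEBPa+SKM 10 and 9 (34.6%). With fewer changes followed OCT4+SKM with 3 higher and 12 lower (11%), PAX1+SKM with 7 and 5 (15.7%), SOX7+SKM with 3 and 6 (12.1%) and MIXL1+SKM with 2 and 1 (2.08%). As shares of the 51 members these counts were 68.6% with GATA4+SKM, 45.1% with GATA6+SKM and 29.4% with OCT4+SKM. With HNF4a+SKM (43.1%), GRB2+SKM (41.2%) and CEBPa+SKM (37.3%) the share was near that of all genes, so the counts there say nothing particular of these families. The members' median log2 difference was -0.61 with GATA4+SKM, -0.38 with GATA6+SKM and -0.23 with OCT4+SKM, beside 0.06, -0.04 and -0.03 for all genes, and lay between -0.20 and 0.06 with the other 6. More MMPs fell than rose with each of the 9 factors: of 9 measured, 8 fell with GATA4+SKM, 6 with GATA6+SKM, 5 with OCT4+SKM, 5 with GRB2+SKM, 3 with CEBPa+SKM, 3 with HNF4a+SKM, 2 with SOX7+SKM, 1 with PAX1+SKM and 1 with MIXL1+SKM. The MMPs that passed in either direction were 88.9% with GATA4+SKM, 77.8% with GATA6+SKM, and 55.6% with OCT4+SKM and with GRB2+SKM. They were 22.2% with SOX7+SKM and 11.1%, a single gene, with MIXL1+SKM. With HNF4a+SKM (33.3%), CEBPa+SKM (33.3%) and PAX1+SKM (11.1%) the share was below that of all genes. The counts there say nothing particular of MMPs. The only MMP that rose was Mmp15, with GATA6+SKM (log2 difference 0.77, lost without SKM+EV replicate 2 or GATA6+SKM replicate 2, adjusted p 0.0862 to 0.093). Serpins went both ways with GATA6+SKM, with 6 of 17 higher and 3 lower, and mostly down with GATA4+SKM, with 2 higher and 10 lower.

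**Figure D2:**
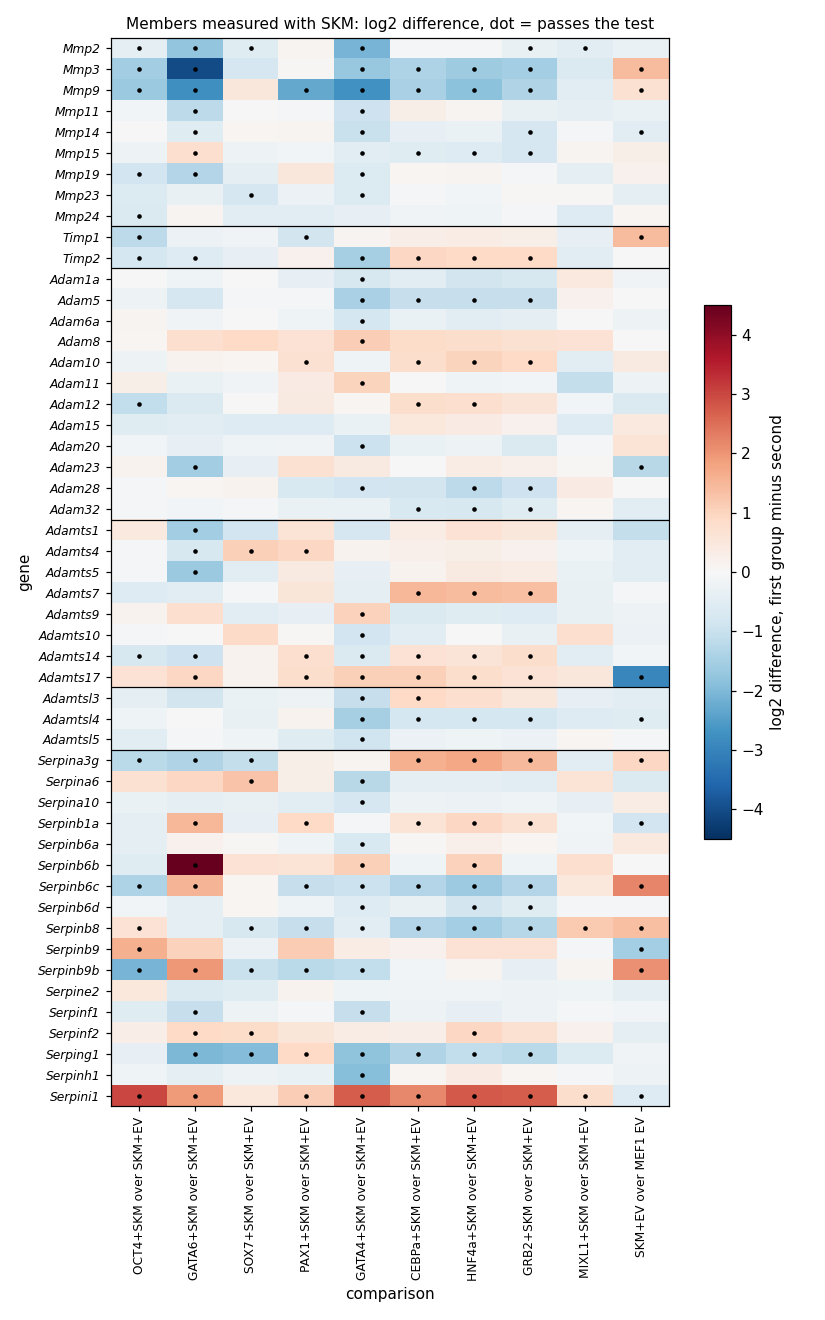
Colour map of the 51 members measured in the SKM set (rows, by family) in the 9 factor comparisons against SKM+EV and in SKM+EV against MEF1 EV (columns). Colour gives the log2 difference, the first-named group minus the second, and a dot marks an adjusted p under 0.05: Mmp9 and Mmp3 are blue and Serpini1 red in most factor columns, and Serpinb6b is darkest with GATA6+SKM.

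Mmp9 was lower than in SKM+EV with 7 of the 9 factors. It had 253 and 281 in OCT4+SKM, 97 and 118 in GATA6+SKM and 205 and 125 in PAX1+SKM, and 108, 124 and 100.3 in GATA4+SKM, 308 and 306 in CEBPa+SKM, 217 and 242 in HNF4a+SKM and 352 and 318 in GRB2+SKM. SOX7+SKM had 1378 and 1232 and MIXL1+SKM 635 and 619, against 799 and 1032 in SKM+EV and 518 and 596 in MEF1 EV. The falls were largest with GATA6+SKM (log2 difference -2.76, SE 0.19, adjusted p = 7.16e-13) and GATA4+SKM (log2 difference -2.72, SE 0.17, adjusted p = 8.23e-14), and lay between -2.29 and -1.36 with the other 5 factors that passed. All 7 factor groups that passed also lay below the MEF1 EV arrays. The keratinocyte marker sum was lower than in SKM+EV with each of the 9 factors, and its part in the result was not tested. Among the 7 factors with a fall in Mmp9 it was highest with GATA6+SKM (62494 to 68834) and lowest with PAX1+SKM (7762 to 8529). It was 85080.2 to 85956 in SKM+EV. With SOX7+SKM (72308 to 85017) and MIXL1+SKM (75943 to 82085), where Mmp9 did not pass, the sum also lay below SKM+EV.

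Mmp2 fell most with the 2 GATA factors. It had 5815 and 6309 in GATA6+SKM and 4898, 4721 and 4955 in GATA4+SKM, against 21333 and 20136 in SKM+EV (log2 difference -1.77, SE 0.13, adjusted p = 3.95e-12 with GATA6+SKM, and log2 difference -2.09, SE 0.12, adjusted p = 8.12e-15 with GATA4+SKM). Smaller differences passed with SOX7+SKM (-0.53, lost without SKM+EV replicate 1 or SOX7+SKM replicate 1, adjusted p 0.0565 to 0.0748) and with OCT4+SKM (-0.43, lost without any 1 of the 4 arrays, adjusted p 0.0538 to 0.25). Mmp2 also passed with GRB2+SKM (-0.34, lost without any 1 of the 4 arrays, adjusted p 0.0688 to 0.187) and MIXL1+SKM (-0.48, lost without any 1 of the 4 arrays, adjusted p 0.0667 to 0.465), the last not after quantile normalization again (adjusted p = 0.0549). PAX1+SKM, CEBPa+SKM and HNF4a+SKM were not past the threshold, at 22704 and 22704, 20297 and 19327 and 18783 and 20086. Mmp14, the activator of pro-Mmp2, had 9920.4, 9777 and 11289 in GATA4+SKM and 12475 and 12135 in GRB2+SKM, against 20776 and 20492 in SKM+EV (log2 difference -0.999, SE 0.14, adjusted p = 7.18e-07 with GATA4+SKM, and log2 difference -0.74, SE 0.15, adjusted p = 0.000276 with GRB2+SKM). It was lower with GATA6+SKM too (-0.56), a call lost without SKM+EV replicate 1 or GATA6+SKM replicate 1 (adjusted p 0.0516 to 0.0594).

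Mmp3 was lowest with GATA6+SKM, where it had 89.7 and 79.8 in GATA6+SKM, against 2051 and 1708 in SKM+EV (log2 difference -4.03, SE 0.46, adjusted p = 7.67e-08). Its level there was also far below the 709.5 and 654 of MEF1 EV. GATA4+SKM brought it to 535, 543 and 599.7 (log2 difference -1.69, SE 0.42, adjusted p = 0.0015). OCT4+SKM, at 648 and 589, passed with a call lost without any 1 of the 4 arrays (adjusted p 0.0745 to 0.169). CEBPa+SKM had 703 and 702, HNF4a+SKM 639 and 554 and GRB2+SKM 636 and 619. Their calls, with log2 differences of -1.37, -1.60 and -1.53, were lost without SKM+EV replicate 1 or CEBPa+SKM replicate 1 or 2 (adjusted p 0.0825 to 0.13) for CEBPa+SKM, lost without SKM+EV replicate 1 or HNF4a+SKM replicate 2 (adjusted p 0.0507 to 0.0582) for HNF4a+SKM and lost without SKM+EV replicate 1 or GRB2+SKM replicate 1 (adjusted p 0.05 to 0.0777) for GRB2+SKM. The arrays of these 5 groups lay at or below the higher MEF1 EV array. PAX1+SKM, with 2060.0 and 1793, SOX7+SKM, with 1123 and 1075, and MIXL1+SKM, with 1056 and 1309.8, did not pass over all arrays. In the limma fit of the SKM set alone, Mmp3 was lower with SOX7+SKM (adjusted p = 0.00039) and MIXL1+SKM (adjusted p = 0.00432). With PAX1+SKM it did not pass there either (adjusted p = 0.84). Of the remaining MMPs, Mmp11 had 476 and 751 in GATA6+SKM and 673, 688 and 827 in GATA4+SKM, against 1604 and 1241 in SKM+EV, with log2 differences of -1.19 with GATA6+SKM and -0.93 with GATA4+SKM. Mmp19 had 1235 and 1751 in GATA6+SKM, against 3113 and 4419.9 in SKM+EV (log2 difference -1.32, SE 0.20, adjusted p = 7.83e-06), and was also lower with OCT4+SKM (-0.84, lost without SKM+EV replicate 2 or OCT4+SKM replicate 1, adjusted p 0.052 to 0.141) and GATA4+SKM (-0.61, lost without SKM+EV replicate 2, adjusted p = 0.2).

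The TIMPs did not follow the proteases as a group, and Timp3 was not analysed in this set. Timp1 was lower than in SKM+EV with OCT4+SKM, at 18120.1 and 17379 in OCT4+SKM, against 35723 and 44401 in SKM+EV (log2 difference -1.16, SE 0.17, adjusted p = 6.73e-06), and with PAX1+SKM, at 23243 and 22215 (log2 difference -0.81, SE 0.17, adjusted p = 0.000899). It did not pass with the other 7 factors, whose arrays ran from 29395 to 52521. Timp2 was higher with 3 factors and lower with 3. It had 55920.2 and 59016 in CEBPa+SKM, 54444 and 57036 in HNF4a+SKM and 53758 and 56567 in GRB2+SKM, against 26218 and 34177 in SKM+EV, with log2 differences of 0.94, 0.90 and 0.88 in that order. GATA4+SKM had 11614, 10390.4 and 10078 (log2 difference -1.48, SE 0.15, adjusted p = 1.64e-09), below every other group of the set. OCT4+SKM (-0.80, lost without OCT4+SKM replicate 2, adjusted p = 0.0525) and GATA6+SKM (-0.59, lost without SKM+EV replicate 2, adjusted p = 0.146) were lower by less. With GATA4+SKM, Mmp2, Mmp14, Mmp9, Mmp3 and Timp2 were thus all low, and Timp1 had 49037, 43369 and 38442. The fibroblast marker sum was lower too, at 37890.5 to 38560.2 with GATA4+SKM and 30090.5 to 32009.7 with GATA6+SKM, against 64347 to 70384 in SKM+EV. With SOX7+SKM (52392 to 56728) and MIXL1+SKM (60072 to 62695) the sum also lay below SKM+EV. It lay above SKM+EV with PAX1+SKM (76249 to 78163). It overlapped SKM+EV with OCT4+SKM (56205 to 64353), CEBPa+SKM (65067 to 66256), HNF4a+SKM (65506 to 65783) and GRB2+SKM (65511 to 65552). The part of this sum in the results was not tested.

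**Figure D3:**
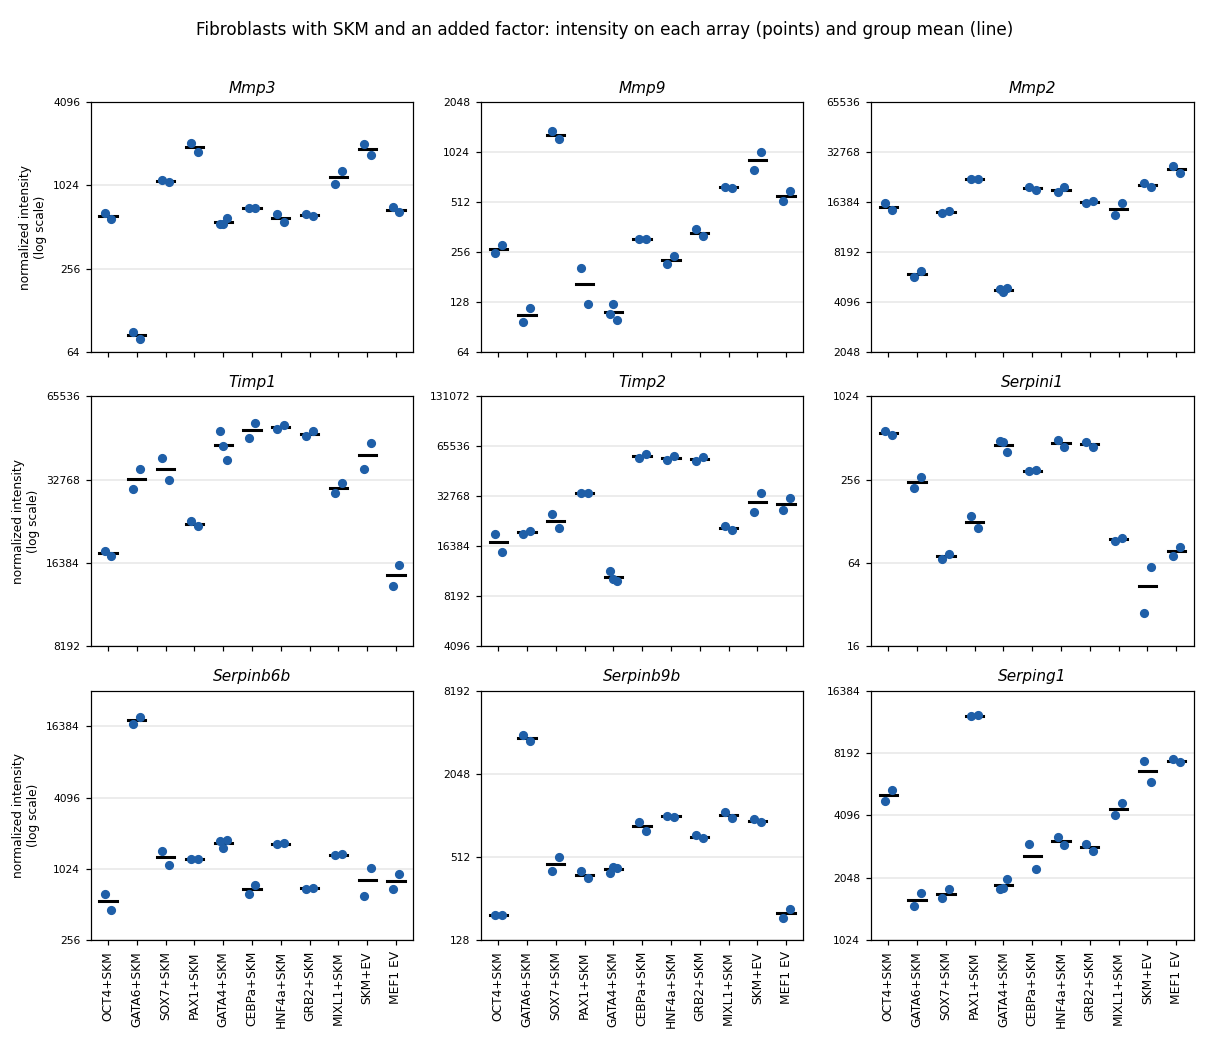
Normalized intensity (log axis) of 9 members in the 11 groups of the SKM set, with a point per array and a line for the group mean of 2 arrays (3 for GATA4+SKM). Mmp3 is lowest with GATA6+SKM, Mmp2 and Timp2 are lowest with GATA4+SKM, and Serpinb6b is high with GATA6+SKM.

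Among the ADAMs, Adam10 was higher than in SKM+EV with HNF4a+SKM, at 2689 and 2742 in HNF4a+SKM, against 1188 and 1547 in SKM+EV (log2 difference 0.98, SE 0.24, adjusted p = 0.00126). It also passed with GRB2+SKM (0.89, lost without SKM+EV replicate 1, adjusted p = 0.0756), CEBPa+SKM (0.78, lost without SKM+EV replicate 1 or CEBPa+SKM replicate 2, adjusted p 0.0902 to 0.148) and PAX1+SKM (0.68, lost without SKM+EV replicate 1 or PAX1+SKM replicate 1 or 2, adjusted p 0.0903 to 0.378). Adam5, a member found mainly in testis, had 189, 252 and 274 in GATA4+SKM, against 754 and 658 in SKM+EV (log2 difference -1.46, SE 0.35, adjusted p = 0.00102). Adam5 passed as well with CEBPa+SKM, HNF4a+SKM and GRB2+SKM, where it had 388 and 269, 331 and 320.0 and 321 and 338 in that order, with calls lost without SKM+EV replicate 1 or 2 or CEBPa+SKM replicate 2 (adjusted p 0.0736 to 0.239) for CEBPa+SKM, lost without any 1 of the 4 arrays (adjusted p 0.0639 to 0.147) for HNF4a+SKM and lost without any 1 of the 4 arrays (adjusted p 0.0706 to 0.16) for GRB2+SKM. Adam12 had 337 and 308 in OCT4+SKM, against 780.1 and 671 in SKM+EV (-1.09), a call lost without SKM+EV replicate 1 or OCT4+SKM replicate 2 (adjusted p 0.0613 to 0.0723). It was higher with CEBPa+SKM (0.79, lost without any 1 of the 4 arrays, adjusted p 0.0538 to 0.118) and HNF4a+SKM (0.75, lost without any 1 of the 4 arrays, adjusted p 0.0549 to 0.127). Adam23 was lower with GATA6+SKM, at 231 and 480.2 in GATA6+SKM, against 679.7 and 1587 in SKM+EV, a call lost without SKM+EV replicate 2 (adjusted p = 0.0532). Adam8, a protease of myeloid and activated cells, was higher with GATA4+SKM, at 719.6, 539 and 613 in GATA4+SKM, against 228 and 319 in SKM+EV, a call lost without SKM+EV replicate 1 (adjusted p = 0.14).

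Of the ADAMTS proteases, Adamts7, which binds cartilage oligomeric matrix protein, rose with 3 factors. It had 478 and 474 in CEBPa+SKM, 412 and 483 in HNF4a+SKM and 429.9 and 431 in GRB2+SKM, against 143 and 152 in SKM+EV, with log2 differences of 1.50, 1.42 and 1.37 in that order. Adamts17, low in SKM+EV, was higher with 6 factors: GATA4+SKM (1.07), CEBPa+SKM (1.09), HNF4a+SKM (0.78), GATA6+SKM (0.92, lost without GATA6+SKM replicate 2, adjusted p = 0.0681), PAX1+SKM (0.81, lost without SKM+EV replicate 1 or 2 or PAX1+SKM replicate 1, adjusted p 0.0656 to 0.154) and GRB2+SKM (0.65, lost without any 1 of the 4 arrays, adjusted p 0.0707 to 0.112). In these it had up to 577, and stayed below the 1816 and 2087 of MEF1 EV. Adamts4, an aggrecanase, rose with SOX7+SKM (log2 difference 1.09, SE 0.22, adjusted p = 0.000942), where it had 528 and 672 in SOX7+SKM, against 294 and 236 in SKM+EV. It was also higher with PAX1+SKM, at 553 and 514 (0.94, lost without SKM+EV replicate 2, adjusted p = 0.0512), and lower with GATA6+SKM (-0.74, lost without SKM+EV replicate 1 or GATA6+SKM replicate 1 or 2, adjusted p 0.0567 to 0.171). Adamts1, another versican-cutting member, had 2028 and 2772 in GATA6+SKM, against 5514 and 9162 in SKM+EV (-1.57), a call lost without SKM+EV replicate 2 or GATA6+SKM replicate 1 (adjusted p 0.0937 to 0.136). Adamts5, the main aggrecanase of mouse cartilage, had 59.4 and 102 in GATA6+SKM, against 196 and 519 in SKM+EV (-1.68, lost without SKM+EV replicate 2, adjusted p = 0.0966). Adamts9 had 1685, 1326 and 1616 in GATA4+SKM, against 554 and 977 in SKM+EV (1.03), a call lost without SKM+EV replicate 1 (adjusted p = 0.158). Adamtsl4 was lower with GATA4+SKM, at 414, 449 and 379 in GATA4+SKM, against 1129 and 1335 in SKM+EV (log2 difference -1.50, SE 0.17, adjusted p = 1.49e-08), and also with CEBPa+SKM (-0.80), HNF4a+SKM (-0.81) and GRB2+SKM (-0.80).

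Serpini1 (neuroserpin), which inhibits tissue plasminogen activator, was higher than in SKM+EV with 8 of the 9 factors. It had 579 and 542 in OCT4+SKM, 221 and 268 in GATA6+SKM, 140.3 and 114 in PAX1+SKM and 488, 478 and 403 in GATA4+SKM, and 294 and 302 in CEBPa+SKM, 494 and 442 in HNF4a+SKM and 479 and 440.4 in GRB2+SKM, against 27.8 and 59.4 in SKM+EV and 72.2 and 83.5 in MEF1 EV. The log2 differences were 3.00 with OCT4+SKM, 2.76 with HNF4a+SKM, 2.73 with GRB2+SKM, 2.72 with GATA4+SKM, 2.16 with CEBPa+SKM, 1.90 with GATA6+SKM and 1.10 with PAX1+SKM, with adjusted p from 1.13e-10 to 0.000268. Its level in SKM+EV was near the pseudocount, so the size of these differences depends on it. The call with MIXL1+SKM (0.78) was lost without SKM+EV replicate 1 or MIXL1+SKM replicate 1 or 2 (adjusted p 0.112 to 0.503), and with a larger pseudocount (adjusted p = 0.108).

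Serpinb6b had 17217 and 19762 in GATA6+SKM, against 612 and 1043 in SKM+EV and 700.4 and 921 in MEF1 EV (log2 difference 4.47, SE 0.25, adjusted p = 4.35e-15), and this was the largest rise of any member in the 18 comparisons. It was also higher with GATA4+SKM, at 1776, 1554 and 1802 (log2 difference 1.06, SE 0.22, adjusted p = 0.000243), a level far below that with GATA6+SKM, and with HNF4a+SKM, at 1648 and 1706 (1.04), a call lost without SKM+EV replicate 1 (adjusted p = 0.0778). With GATA6+SKM, Serpinb9b had 3879.8 and 3521 in GATA6+SKM, against 958 and 914 in SKM+EV (log2 difference 1.95, SE 0.26, adjusted p = 6.83e-07), Serpinb6c had 3084 and 2699.5 in GATA6+SKM, against 981 and 956 in SKM+EV (1.54), and Serpinb1a, an inhibitor of neutrophil elastase, had 2062 and 1746 in GATA6+SKM, against 770.3 and 564 in SKM+EV (log2 difference 1.48, SE 0.17, adjusted p = 1.13e-07). No array of these groups overlapped, as for 64.8% of all genes with GATA6+SKM. The 2 measured of 5 simple epithelium markers summed to 38114 to 45526 with GATA6+SKM, against 8805 to 13038 in SKM+EV, and their part in the result was not tested. Serpinb1a was higher with 4 other factors too, HNF4a+SKM (0.95), PAX1+SKM (0.88), GRB2+SKM (0.70, lost without SKM+EV replicate 2, adjusted p = 0.0589) and CEBPa+SKM (0.63, lost without SKM+EV replicate 2 or CEBPa+SKM replicate 1, adjusted p 0.086 to 0.118), as log2 differences. Serpinb9b and Serpinb6c fell with other factors. Serpinb9b was 194 and 195 with OCT4+SKM (log2 difference -2.09, SE 0.26, adjusted p = 5.39e-07), the level of the 187 and 216 in MEF1 EV, and was lower with PAX1+SKM, at 405 and 361 (-1.22), and GATA4+SKM, at 394, 433 and 424 (-1.11). It was lower as well with SOX7+SKM, at 409.6 and 509 (-0.99, lost without SKM+EV replicate 1 or SOX7+SKM replicate 1, adjusted p 0.0874 to 0.133). Serpinb6c had 382 and 329 in OCT4+SKM, 481 and 434 in PAX1+SKM, 402 and 341 in CEBPa+SKM, 268 and 316 in HNF4a+SKM and 386 and 359.5 in GRB2+SKM, against 981 and 956 in SKM+EV. Its log2 differences were -1.37 with OCT4+SKM, -1.31 with CEBPa+SKM, -1.63 with HNF4a+SKM and -1.31 with GRB2+SKM, and the call with PAX1+SKM (-1.03) was lost without SKM+EV replicate 1 or PAX1+SKM replicate 2 (adjusted p 0.0549 to 0.0579). Serpinb6c was lower with GATA4+SKM too, at 416, 574 and 479 (-0.95). Serpinb8 was lower with 6 factors, HNF4a+SKM (-1.53), CEBPa+SKM (-1.32), GRB2+SKM (-1.29), PAX1+SKM (-1.03), SOX7+SKM (-0.71, lost without SKM+EV replicate 2 or SOX7+SKM replicate 2, adjusted p 0.156 to 0.183) and GATA4+SKM (-0.49, lost without SKM+EV replicate 2, adjusted p = 0.34). It was higher with OCT4+SKM (0.65, lost without SKM+EV replicate 1 or OCT4+SKM replicate 1 or 2, adjusted p 0.0526 to 0.371), and was the member with the largest rise with MIXL1+SKM, at 1249 and 1161 in MIXL1+SKM, against 427 and 613 in SKM+EV (log2 difference 1.18, SE 0.19, adjusted p = 0.000267).

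Secreted serpins differed by factor. Serping1 had 1493 and 1729.7 in GATA6+SKM, 1637 and 1806 in SOX7+SKM and 1816, 1825 and 2014 in GATA4+SKM, against 7476 and 5961 in SKM+EV, with log2 differences of -2.03, -1.94 and -1.81 in that order. CEBPa+SKM had 2975 and 2258 (-1.35), HNF4a+SKM 3222 and 2967 (-1.10) and GRB2+SKM 2979.7 and 2774 (-1.21). It was higher with PAX1+SKM, at 12312 and 12475 (log2 difference 0.89, SE 0.19, adjusted p = 0.00129), so that PAX1+SKM and the 6 factors named before it lay on opposite sides of SKM+EV. Serpina3g had 1749.6 and 1985 in CEBPa+SKM, 1951 and 2178 in HNF4a+SKM and 1659.7 and 1718 in GRB2+SKM, against 486 and 723 in SKM+EV, with log2 differences of 1.60, 1.74 and 1.46, and was lower with GATA6+SKM (-1.37), OCT4+SKM (-1.21, lost without SKM+EV replicate 2 or OCT4+SKM replicate 2, adjusted p 0.0568 to 0.068) and SOX7+SKM (-1.07, lost without SKM+EV replicate 2 or SOX7+SKM replicate 2, adjusted p 0.109 to 0.178). Serpinh1 had 5631, 3179 and 6159 in GATA4+SKM, against 19860.3 and 16757 in SKM+EV (log2 difference -1.92, SE 0.26, adjusted p = 5.93e-07), and passed with no other factor. The 2 measured of 6 hepatocyte markers summed to 6634 to 8901 with GATA4+SKM, against 153 to 163 in SKM+EV, and their part in the results with GATA4+SKM was not tested. Serpinf1 had 30756 and 26587 in GATA6+SKM and 30333, 31055 and 24945 in GATA4+SKM, against 65470.1 and 53248 in SKM+EV, with log2 differences of -1.05 and -1.04. The clade A member Serpina6, the corticosteroid-binding globulin, had 1299 and 1699 in SOX7+SKM, against 624 and 553 in SKM+EV (1.29), a call lost without any 1 of the 4 arrays (adjusted p 0.0871 to 0.182), and was lower with GATA4+SKM (-1.24, lost without SKM+EV replicate 1, adjusted p = 0.0611).

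CEBPa+SKM, HNF4a+SKM and GRB2+SKM gave like values for many members, among them Timp2, Adamts7, Serpina3g and Mmp3. Their 6 arrays also had the highest array medians of the set, 412.6 to 416.1, against 400.8 to 408.1 on the other 17 arrays. The part of this scaling, or of another effect common to the 6 arrays, in the shared values was not tested. Quantile normalization again within the set left each of the calls named for these 3 groups. It evens only the distribution of values on each array, so it cannot decide this. Among the further proteases and inhibitors, the lysosomal protease Ctsd was higher in all 3 (2.32 with CEBPa+SKM, 2.71 with HNF4a+SKM and 2.00 with GRB2+SKM), and so was the serine protease Htra1 (1.86, 1.80 and 1.73 in the same order). The proprotein convertase Furin was lower (-1.29, -1.25 and -1.42). Over that list of 17 measured genes, 6 were higher and 2 lower with CEBPa+SKM, 5 and 4 with HNF4a+SKM, 5 and 2 with GRB2+SKM, 2 and 7 with GATA4+SKM, 2 and 4 with GATA6+SKM, 1 and 5 with OCT4+SKM, 3 and 1 with SOX7+SKM, and 0 and 3 with PAX1+SKM. Of all genes, 34.6%, 42.4%, 40.3%, 53.9%, 22%, 11%, 12.1% and 15.7% passed in that order, so these counts are a description only. With MIXL1+SKM limma called 0 of the 17 listed genes at an adjusted p under 0.05, beside 2.08% of all genes. At an unadjusted p under 0.05 it called 4 of them. The cysteine protease Ctsk, a collagen-degrading enzyme, was lower with GATA4+SKM (-1.49), GATA6+SKM (-0.80) and OCT4+SKM (-0.83).

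OKM with the empty vector was compared with MEF2 EV, the fibroblast control for the SOX2 substitutes. Over all arrays 17 of 74 members were higher and 13 lower, beside 40.8% of all 11948 genes, a share near the members' own 40.5%. In the set alone 6 passed, all among those 30, beside 5.54% of all genes that passed both fits. Adam8 had 2133, 2031 and 418 in OKM+EV, against 20141 and 27419.6 in MEF2 EV (log2 difference -4.22, SE 0.37, adjusted p = 8.46e-11 over all arrays and 0.016 in the set alone), with the third OKM+EV array well below the other 2. Mmp9 had 227, 295 and 252 in OKM+EV, against 1539.6 and 1568 in MEF2 EV (log2 difference -2.46, SE 0.17, adjusted p = 5.26e-13 over all arrays and 0.00934 in the set alone), without overlap, as for 40.2% of all genes. Serpinb2, the plasminogen activator inhibitor type 2, had 591, 644 and 296 in OKM+EV, against 44.6 and 71.4 in MEF2 EV (log2 difference 2.54, SE 0.25, adjusted p = 8.98e-08 over all arrays and 0.0188 in the set alone). The other 3 that changed were Adamts17, at 681, 492 and 695 in OKM+EV, against 2304 and 2098 in MEF2 EV (log2 difference -1.78, SE 0.21, adjusted p = 3.3e-08 over all arrays and 0.0233 in the set alone), Adam23, at 2158, 2278 and 1642 in OKM+EV, against 5724 and 6452 in MEF2 EV (log2 difference -1.58, SE 0.29, adjusted p = 5.39e-05 over all arrays and 0.0213 in the set alone), and Serpina3n, a mouse antichymotrypsin, at 138, 125 and 178 in OKM+EV, against 38 and 40.4 in MEF2 EV (log2 difference 1.32, SE 0.17, adjusted p = 0.000438 over all arrays and 0.0215 in the set alone).

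Adam8 and Mmp9 are also expressed by macrophages. The 6 measured of 8 macrophage markers summed to 1090.4 to 3997 in OKM+EV, against 34809 to 42764 in MEF2 EV, and their part in these results was not tested. The adipocyte sum (3 of 4 markers) was 507 to 11834 in OKM+EV, against 15992 to 16265 in MEF2 EV, and the keratinocyte sum (7 of 7) was 34486 to 64483 in OKM+EV, against 1631 to 1792 in MEF2 EV. Members that passed over all arrays and not in the set alone included Serpinb9b, which had 1214, 1150.0 and 418 in OKM+EV, against 181 and 152 in MEF2 EV (log2 difference 2.14, SE 0.24, adjusted p = 1.04e-08 over all arrays and 0.0614 in the set alone), and Timp3, which had 19481, 25955 and 35208 in OKM+EV, against 13497 and 10793 in MEF2 EV (log2 difference 1.11, SE 0.19, adjusted p = 0.000132 over all arrays and 0.0806 in the set alone). Serpina3g, with 1123, 1225 and 564 in OKM+EV, against 208 and 234 in MEF2 EV, Serpinb6c, with 1067, 984 and 1082 in OKM+EV, against 482 and 285 in MEF2 EV, and Adam12, with 795, 761 and 329 in OKM+EV, against 249 and 268 in MEF2 EV, were likewise higher over all arrays alone. Adam15, with 1669, 2317 and 1054 in OKM+EV, against 4349.8 and 4143 in MEF2 EV, and Mmp19, with 1159, 1208 and 1602 in OKM+EV, against 3032 and 3274 in MEF2 EV, were lower over all arrays alone. In the set alone the adjusted p of these 5 was 0.0512, 0.0687, 0.229, 0.0792 and 0.0558 in that order. Timp1 overlapped between the groups, with 30442, 40172 and 22047 in OKM+EV, against 18452 and 22047 in MEF2 EV. Of 21 further proteases and inhibitors, 8 were higher and 5 lower over all arrays, beside 40.8% of all genes that passed. The 5 that passed both fits were Spint1 (2.85), Spint2 (2.58), St14 (2.56) and Plat (1.98), which were higher, and Ctsd (-1.71), which was lower. Of all genes, 5.54% passed both fits.

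**Figure D4:**
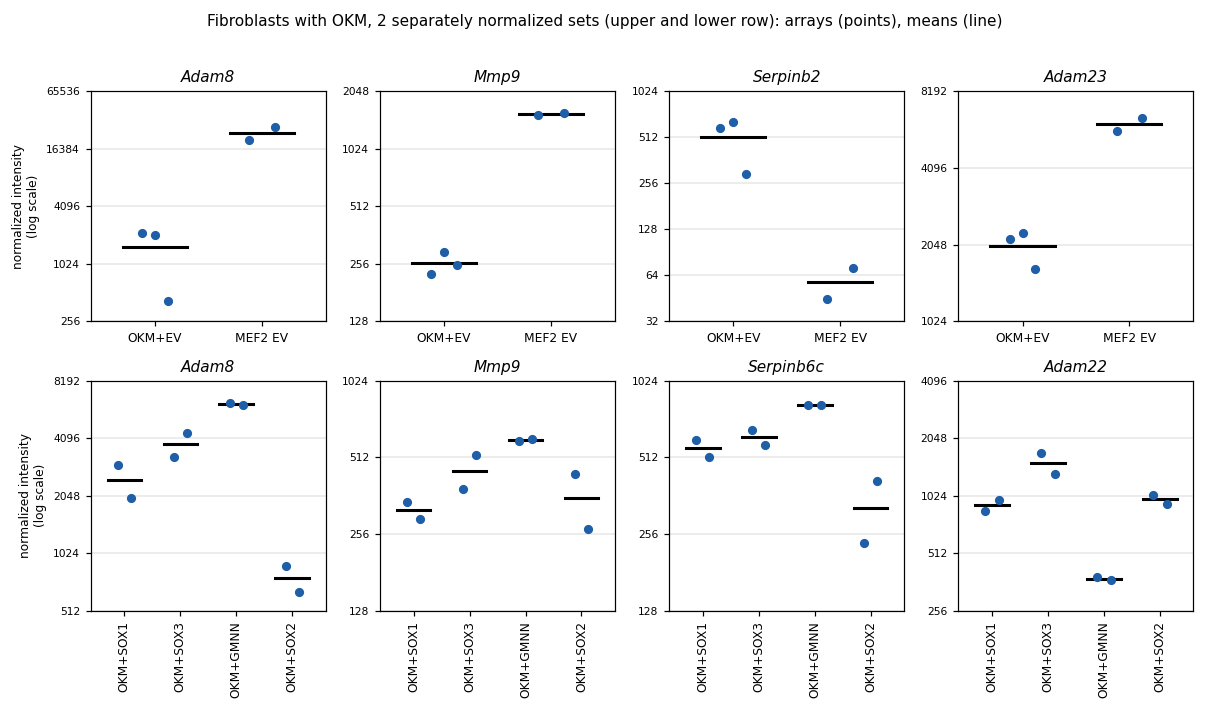
Normalized intensity (log axis) of 4 members in OKM+EV and MEF2 EV (upper row) and of 4 members in OKM with SOX1, SOX3, GMNN or SOX2 (lower row, normalized separately), with points for arrays and a line for the mean. Adam8 and Mmp9 lie lower in OKM+EV than in MEF2 EV, and Adam8 lies higher with SOX1, SOX3 and GMNN than with SOX2.

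The SOX2 substitutes were set against OKM+SOX2, whose 2 arrays all 3 comparisons share. Over all arrays OKM+SOX1 had 1 higher and 3 lower of 64 members (5.72% of all genes), OKM+SOX3 3 and 4 (6.32%) and OKM+GMNN 5 and 1 (7.22%). Members that passed both fits numbered 1 with OKM+SOX3 and 3 with OKM+GMNN, beside 0.223% and 1.85% of all genes. With OKM+SOX1, limma in the set alone called 0 members, and 12 had an unadjusted p under 0.05 over all arrays. Adam8 had 2963 and 1989 in OKM+SOX1, 3266 and 4358 in OKM+SOX3 and 6239.6 and 6077 in OKM+GMNN, against 882 and 645 in OKM+SOX2, and no array of a substitute overlapped OKM+SOX2, as for 38.6%, 43.5% and 45.7% of all genes in that order. It changed with OKM+SOX3 (log2 difference 2.27, SE 0.41, adjusted p = 0.00129 over all arrays and 0.0133 in the set alone) and OKM+GMNN (log2 difference 2.98, SE 0.41, adjusted p = 9.17e-06 over all arrays and 0.00111 in the set alone). With OKM+SOX1 it passed over all arrays and not in the set alone (log2 difference 1.64, SE 0.41, adjusted p = 0.0174 over all arrays and 0.0616 in the set alone), and the call over all arrays was lost without any 1 of the 4 arrays (adjusted p 0.0578 to 0.128). The 5 measured of 8 macrophage markers summed to 2447 to 2477 with OKM+SOX1, 3734 to 3923 with OKM+SOX3 and 4067 to 4212 with OKM+GMNN, against 749 to 1248 with OKM+SOX2, and their part in the result was not tested.

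The other members that changed did so with OKM+GMNN. Adam22, a nerve-cell ADAM without protease activity, had 384 and 369.8 in OKM+GMNN, against 1034 and 930.1 in OKM+SOX2 (log2 difference -1.31, SE 0.25, adjusted p = 0.00283 over all arrays and 0.0168 in the set alone). Serpinb6c had 819 and 823 in OKM+GMNN, against 237 and 413 in OKM+SOX2 (log2 difference 1.30, SE 0.27, adjusted p = 0.00175 over all arrays and 0.0447 in the set alone), a call over all arrays lost without OKM+SOX2 replicate 1 (adjusted p = 0.119). The 7 keratinocyte markers summed to 93558 to 100576 in OKM+GMNN, against 30502 to 35049.7 in OKM+SOX2, and their part in the result was not tested. Mmp9 had 343 and 294 in OKM+SOX1, 383 and 521 in OKM+SOX3 and 594 and 607 in OKM+GMNN, against 439 and 269 in OKM+SOX2. Its difference with OKM+GMNN (log2 difference 0.75, SE 0.19, adjusted p = 0.0113 over all arrays and 0.27 in the set alone) passed over all arrays and was lost without OKM+SOX2 replicate 2 or OKM+GMNN replicate 1 or 2 (adjusted p 0.0765 to 0.231). Adam23 had 1622 and 1793 in OKM+SOX3, against 4087 and 4074 in OKM+SOX2 and passed over all arrays and not in the set alone (log2 difference -1.24, SE 0.32, adjusted p = 0.0185 over all arrays and 0.146 in the set alone), lost without OKM+SOX2 replicate 1 or OKM+SOX3 replicate 1 or 2 (adjusted p 0.0768 to 0.153). The TIMPs changed with none of the 3 substitutes: Timp1 ran from 36491 to 45493 against 43457 and 39372 in OKM+SOX2, and Timp3 from 10800.3 to 19838 against 12195 and 14146 in OKM+SOX2. Timp2 passed over all arrays with OKM+SOX1, at 24369 and 20681 in OKM+SOX1, against 36774 and 29797 in OKM+SOX2, and not in the set alone (log2 difference -0.56, SE 0.16, adjusted p = 0.0376 over all arrays and 0.295 in the set alone), and the call was lost without OKM+SOX1 replicate 1 or 2 or OKM+SOX2 replicate 1 (adjusted p 0.058 to 0.447). In the further list of 21 genes, 1 was higher with OKM+SOX1, 2 were higher and 1 lower with OKM+SOX3, and 1 was higher with OKM+GMNN over all arrays, none of them in the set alone. Of all genes, 5.72%, 6.32% and 7.22% passed over all arrays in that order.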

How the data were processed

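RNA of 49 one-colour arrays of cultured mouse cells was measured. The deposited values are linear normalized intensity; the authors' software and normalization were not given in the sources used here, and the values fall into 5 sets normalized separately, so each comparison stays within a set. No value column was left unused. Probes were named through the platform annotation and RefSeq symbols, and the brightest probe stood for a gene. Negative intensities were set to 0 and log2(intensity + 32) was fitted with 1 mean per group over all arrays, with limma 3.58.1 in R 4.3.3 (trended empirical Bayes, two-sided). Genes needed a value on every array compared, and Benjamini-Hochberg adjustment ran over all of them. The fit was tested on simulated data, where it made far more false calls than its threshold allows in both OKM comparisons simulated and few in the SKM and line comparisons, so calls in the OKM sets had to pass the set alone as well. Tables were made with Python 3.11.15. The members, marker lists and list of further proteases were chosen with earlier results of these data known. Values on every array are given for up to 12 members a comparison that passed, changed at least 2-fold, did not overlap and whose brighter group lay above the median of all genes, and for a list of members always described. Alternatives were a larger pseudocount, leaving out the dimmest 25% of genes, the set alone, the mean over probes, quantile normalization again, a replicate block and leaving out each array. The replicate numbers were not taken as pairing, since the labels name no shared source and same-numbered arrays correlated between -0.39 and 0.52 in their deviations. The split of ADAMs by active site was not made, because no protein sequences were used here. The number of arrays limits the precision, and probe depth is unknown.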

Additional observations from a re-analysis of the deposited data

Results flagged for a closer look

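Members are given here for which both arrays of an iPSC line lay on 1 side of uninfected MEF and both arrays of R1 on the other side, with a difference between the line and R1 that passed. The difference between the line and R1 is the tested one, and no group was large enough for a search for single outlying arrays. In G6Gm, Mmp14 was above the fibroblasts and in R1 below them, with a log2 difference of G6Gm minus R1 of 2.00. The same held for the aggrecanase Adamts4, with 314 and 306 in G6Gm, against 120.0 and 109 in R1 and 167 and 151 in MEF (1.23), and for Serpinf1, with 24059 and 23487 in G6Gm, against 13982 and 13715 in R1 and 15894 and 15527 in MEF (0.78). Serpinb6a, an intracellular serpin, had 4158 and 3766 in G6Gm, against 2457 and 2356 in R1 and 3599 and 3624 in MEF (0.71, lost without G6Gm replicate 1 or R1 replicate 1 or 2, adjusted p 0.0502 to 0.101). Mmp13 went the other way, below the fibroblasts in G6Gm and above them in R1 (-3.73).

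In Dlx3RNAi, Mmp14 (1.70), Adamts4 with 292 and 260.4 (1.07), Serpinf1 with 25695 and 27148 (0.93) and Serpinb6a with 4149 and 5143 (0.93) also lay above the fibroblasts while R1 lay below them. Adam15, a membrane ADAM, had 1605 and 1569 in Dlx3RNAi, against 987 and 817 in R1 and 1041 and 999 in MEF (0.80, lost without R1 replicate 2, adjusted p = 0.0808), and with the mean over its probes in place of the brightest one the call was lost (adjusted p = 0.0653). Adamts8, another aggrecanase, had 22.2 and 27.7 in Dlx3RNAi, against 53.8 and 47.5 in R1 and 42.6 and 34.5 in MEF, below the fibroblasts in the line and above them in R1 (-0.54), at levels near the pseudocount.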

How the results depend on the processing

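Of 303 member results that passed over all arrays, those of the OKM sets included, 145 kept their side of the threshold in every alternative and 0 changed direction. The fit of the set alone ended 37 of them, all in the OKM comparisons and none in the SKM set or the lines. A larger pseudocount ended 10, quantile normalization again and the mean over probes 3 each, and the replicate block 2. Leaving out the dimmest genes ended 0 of the 258 that stayed in. Leaving out 1 array ended 353 of 1499 member results over all arrays left out. In the set alone, the members called numbered 29 for G6Gm, 21 for G3 and 30 for Dlx3RNAi against R1, 24 for SKM+EV against MEF1 EV, and against SKM+EV 24 for OCT4+SKM, 18 for SOX7+SKM, 22 for PAX1+SKM and 10 for MIXL1+SKM. Of all genes it called 35.3%, 20.7%, 37.5%, 34%, 23%, 24.8%, 32.7% and 6.86% in that order. In the same fit members numbered 6 for OKM+EV against MEF2 EV, and against OKM+SOX2 limma called 0 for OKM+SOX1 (10 at an unadjusted p under 0.05), 1 for OKM+SOX3 and 3 for OKM+GMNN. Of all genes it called 5.57%, 0.197%, 0.241% and 2.01% there. With the replicate block, which shared numbers alone support, the counts were 14 for G3, 24 for SKM+EV, 16 for SOX7+SKM, 21 for PAX1+SKM, 9 for MIXL1+SKM, 9 for OKM+SOX1, 11 for OKM+SOX3 and 14 for OKM+GMNN. The share of all genes is not given beside the block counts, so they say nothing particular of these families. In every comparison of the SKM set and of the lines, more members, and more of all genes, passed in the set alone than over all arrays. The fit over all arrays shares its spread with the OKM sets, whose arrays lay farther apart. A member of the SKM set or the lines that did not pass over all arrays is therefore not shown to be unchanged. The part of this sharing in the shifts was not tested, nor was the cause of the shifts with the block.

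With 1 array left out, the counts ran from 25 to 37 for the lines against MEF (37 with all arrays), 12 to 14 for G6Gm (19), 2 to 5 for G3 (8) and 13 to 15 for Dlx3RNAi (19). They ran from 8 to 9 for SKM+EV (14), 6 to 10 for OCT4+SKM (15), 18 to 21 for GATA6+SKM (23), 4 to 7 for SOX7+SKM (9), 8 to 14 for PAX1+SKM (12) and 24 to 34 for GATA4+SKM (35). For CEBPa+SKM they were 12 to 15 (19), for HNF4a+SKM 14 to 21 (22), for GRB2+SKM 12 to 16 (21) and for MIXL1+SKM 1 to 4 (3). In the OKM sets they were 23 to 41 for OKM+EV (30), 0 to 6 for OKM+SOX1 (4), 1 to 7 for OKM+SOX3 (7) and 4 to 7 for OKM+GMNN (6). The counts that moved by over 1.5 times were, with the array left out in brackets, for G6Gm 12 (R1 replicate 2); for G3 3 (G3 replicate 1), 3 (G3 replicate 2), 2 (R1 replicate 1) and 5 (R1 replicate 2); for SKM+EV 8 (MEF1 EV replicate 1), 9 (MEF1 EV replicate 2), 8 (SKM+EV replicate 1) and 9 (SKM+EV replicate 2). They were, for OCT4+SKM 8 (SKM+EV replicate 1), 8 (OCT4+SKM replicate 1) and 6 (OCT4+SKM replicate 2); for SOX7+SKM 4 (SKM+EV replicate 1), 5 (SOX7+SKM replicate 1) and 4 (SOX7+SKM replicate 2); for CEBPa+SKM 12 (SKM+EV replicate 1) and 12 (CEBPa+SKM replicate 1). They were, for HNF4a+SKM 14 (HNF4a+SKM replicate 2); for GRB2+SKM 12 (SKM+EV replicate 1); for MIXL1+SKM 1 (SKM+EV replicate 1). They were, for OKM+SOX1 1 (OKM+SOX1 replicate 1), 0 (OKM+SOX1 replicate 2) and 0 (OKM+SOX2 replicate 1); for OKM+SOX3 1 (OKM+SOX2 replicate 1), 1 (OKM+SOX3 replicate 1) and 1 (OKM+SOX3 replicate 2). Neither Mmp3 nor Adam17 passed in the lines against MEF, and with 1 array left out their log2 differences ran from -0.038 to 0.044 for Mmp3 and from -0.25 to 0.39 for Adam17.

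Groups of 2 or 3 arrays leave the spread of a group to the pooled fit. Where an array is left out and a group keeps 1 array, that array is assumed to vary like the other groups. The number of all genes called moved as well when an array was left out, so those counts say nothing particular of these members. Levels near the pseudocount, such as Serpini1 in SKM+EV, have differences that depend on it.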

Other observations

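ESC line B6 was normalized apart from every fibroblast group, so its members are given as levels with no comparison. Over its 3 arrays Timp1 ran from 5335 to 5768, Timp2 from 690.3 to 830.2 and Timp3 from 488 to 621. Mmp2 ran from 1048 to 1161, its activator Mmp14 from 1158 to 1429, Mmp13 from 152 to 268 and Mmp9 from 140.2 to 173. The collagen chaperone Serpinh1 ran from 2758 to 3409.5, Serpinf1 from 671 to 717 and the sheddase Adam10 from 942 to 1055. The 6 measured of 10 fibroblast markers summed to 646 to 752 in B6, and the 5 measured of 8 pluripotency markers to 61894 to 66366.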
